A study of Homo sapiens with 12 samples.

Results

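The cells described here were 706 non-cycling Nalm-6 cells that held FCER1G transcript but almost no chemokine transcript, out of 10398 cells of the series that passed the cell filter. Nalm-6 is an established line grown from a human leukemia of B cell precursors. Single-cell RNA-seq had been made on the 10x Genomics Chromium 3' platform from 1 library of control cells and 1 library of cells labelled RUNX1, each taken at 72 h. For the RUNX1 library the genotype field says induced RUNX1 expression, and doxycycline at 500 ng/ml is given. For the control the genotype field says empty vector, the title says DMSO and no doxycycline is listed, so vector, inducer, culture and RUNX1 label cannot be told apart. Both libraries came from 1 line, lanes were loaded with human and mouse cells together, dead cells had been removed, and the 10 ChIP-seq samples were not analysed here.

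The cells were selected in the library labelled RUNX1, where 4800 of 5491 barcodes held more than 2000 and fewer than 6000 genes and under 20% mitochondrial UMIs (unique molecular identifiers, each standing for 1 captured transcript). A cell cycle value P, the UMIs of MKI67, TOP2A, RRM2, TYMS, CENPF and CCNB1 per 10000 UMIs of the cell, split these into a cycling and a non-cycling set of 2400 cells each, with the limit at a P of 1.04. Of the 2400 non-cycling cells, 1674 (69.75%) held an FCER1G UMI. Of these, 785 were left out for 2 or more UMIs of the chemokines CCL3 and CCL4 together and 314 for a UMI of C1orf141, LINC00967 or STON1-GTF2A1L, with 131 meeting both. The remaining 706 cells were 29.4% of the non-cycling cells (exact binomial interval 27.6 to 31.3) and 14.7% of the cells of the library that passed the filter. P, FCER1G, the chemokines and the 3 excluded genes therefore chose the cells and are given only as a description. With 1 library per condition there is no replicate, cells are not replicates of a condition, no test was made, and intervals are at 95% and take in counting error alone.

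FCER1G encodes the common gamma chain of Fc receptors, a small membrane protein with an ITAM, the cytoplasmic motif that is phosphorylated by Src family kinases and then binds the kinase SYK. It carries the signal of the IgE receptor in mast cells and basophils and of IgG receptors in myeloid and natural killer cells, and in precursor B cells the same kind of motif is supplied by CD79A and CD79B below the pre-B cell receptor. RUNX1 is a DNA-binding transcription factor of blood cell formation.

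The 4 promoters below are those of FCER1G and of the 3 most abundant transcripts among the 28 genes that were 4-fold or more higher in the FCER1G-positive cells than in non-cycling cells without it. That ratio was taken over cells of every depth. Each line holds the 250 bases before the annotated start, 5′ to 3′ on the strand of the gene, from RefSeq on GRCh38.p14, and capitals mark TGTGGT, a core sequence bound by RUNX proteins, searched on both strands.
FCER1G: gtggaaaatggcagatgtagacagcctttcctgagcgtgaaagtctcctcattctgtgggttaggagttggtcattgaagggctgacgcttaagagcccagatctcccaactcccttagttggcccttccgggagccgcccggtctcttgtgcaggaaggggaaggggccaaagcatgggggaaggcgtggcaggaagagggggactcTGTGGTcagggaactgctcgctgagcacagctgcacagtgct
GCHFR: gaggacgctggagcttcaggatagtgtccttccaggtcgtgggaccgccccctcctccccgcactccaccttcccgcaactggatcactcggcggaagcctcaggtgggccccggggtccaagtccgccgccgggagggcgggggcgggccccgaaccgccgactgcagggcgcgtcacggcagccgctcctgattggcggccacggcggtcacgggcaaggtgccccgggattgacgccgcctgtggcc
RHOB: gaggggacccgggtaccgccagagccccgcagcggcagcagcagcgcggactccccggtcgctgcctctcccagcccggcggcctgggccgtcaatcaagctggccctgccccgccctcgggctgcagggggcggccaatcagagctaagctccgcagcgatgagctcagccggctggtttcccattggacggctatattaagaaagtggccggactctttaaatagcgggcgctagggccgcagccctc
IL4I1: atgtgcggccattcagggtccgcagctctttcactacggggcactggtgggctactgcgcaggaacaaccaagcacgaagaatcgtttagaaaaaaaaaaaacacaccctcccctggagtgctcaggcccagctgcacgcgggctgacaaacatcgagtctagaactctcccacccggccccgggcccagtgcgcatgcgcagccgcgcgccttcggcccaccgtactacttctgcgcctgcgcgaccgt
They lie at chr1:161215045-161215294 on the plus strand (FCER1G), chr15:40763818-40764067 on the plus strand (GCHFR), chr2:20446824-20447073 on the plus strand (RHOB) and chr19:49929505-49929754 on the minus strand (IL4I1). The FCER1G window held 1 match and the other 3 windows held 0. TGTGGT or its complement ACCACA was present in 3855 of 35116 promoters of the same length, or 11.0%, and the match describes these letters without showing that a factor binds there.

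FCER1G was found in 20.5% of the cycling set, against 69.75% of all non-cycling cells, and was close to absent from the control library. FCER1G (ENSG00000158869, GRCh37 chromosome 1, 161185024 to 161190489, plus strand) summed to 3307 UMIs in the 706 cells, or 410 CPM (UMIs of the gene per 1000000 UMIs of the group of cells, 396 to 424). It stood at 506 CPM in the 715 non-cycling cells with 2 or more UMIs of CCL3 and CCL4 together (named the chemokine cells below). In the 491 cells with C1orf141, LINC00967 or STON1-GTF2A1L (named the C1orf141 set below) it stood at 244 CPM, and in the cycling set at 39.3 CPM. In the control library 7 of 5598 cells held an FCER1G UMI, or 0.0924 CPM, and 0 of 147 low-cycling control cells did, which allows a share of up to 2.48%. Since deeper cells show a rare transcript more easily, shares were also read after random thinning of every cell to 8000 UMIs, which left out 150 of the 706 cells and 104 of the 2400 cycling cells. The share with an FCER1G UMI was then 87.2% (84.2 to 89.9) in the selected cells and 13.1% in the cycling set, where it was 20.5% before thinning. The median depths were 11071.5 and 19051.5 UMIs. Every selected cell held FCER1G by the rule, so their share was set by the selection and is no contrast with the cycling set.

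**Figure D1:**
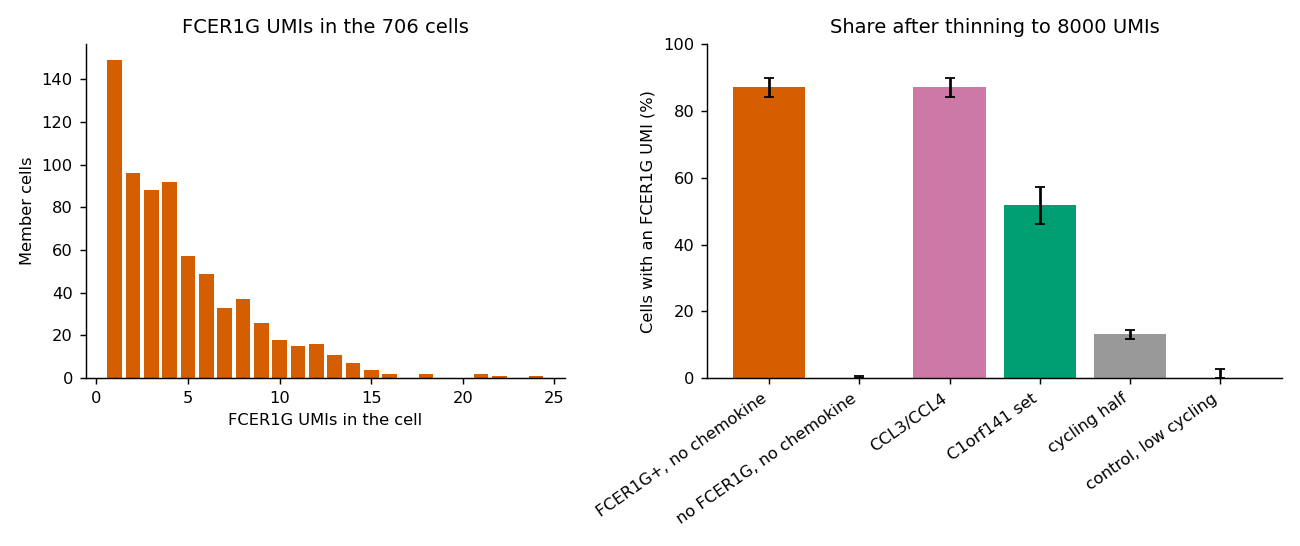
Left, the number of FCER1G UMIs per cell (horizontal axis) against the number of the 706 selected cells (vertical axis). Right, the share of cells with an FCER1G UMI in percent after thinning each cell to 8000 UMIs in 6 groups of cells, with exact binomial intervals. The selected cells and the CCL3/CCL4 cells stand at 87.2% and 87.3%, the cycling set at 13.1%. Every selected cell held FCER1G before thinning by the rule.

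The amount of FCER1G varied widely among the cells. A single UMI was found in 149 cells, 2 or 3 in 184, 4 to 7 in 231 and 8 or more in 142, with a median of 4 and a highest value of 24. The CCL3 and CCL4 sum was 0 in 459 cells and 1 in 247, and a further 189 FCER1G-positive cells stood just outside with a sum of 2. P was 0 in 566 cells (80.2%), and the largest P of any selected cell was 1.03, with the smallest P of the cycling set just above the limit. There were 22 cells (3.12%) above 20000 UMIs, and no doublet caller was run. Of the 706 barcodes 1 was also present in the control library, where 10 barcodes were shared by cells that passed the filter.

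The selected cells carried the transcripts of B cell precursors and lacked the partners that FCER1G has in other lineages. Of 13 B precursor markers, 11 stood at 10 CPM or more, led by VPREB1 at 3505 CPM and IGLL1 at 1056 CPM, which together form the surrogate light chain. RAG1 and RAG2 stood below, at 1.98 and 6.81 CPM. The immunoglobulin signalling chains CD79B and CD79A stood at 576 and 535 CPM. Of 10 mature B markers 5 reached 10 CPM, led by TNFRSF13B at 59.6 CPM and CD37 at 52.9 CPM. Of 7 plasma cell markers 4 did, led by XBP1 at 911 CPM. The summed level was 7048 CPM for the precursor, 227 CPM for the mature B and 985 CPM for the plasma cell markers. FCER1A and MS4A2, the alpha and beta chains of the IgE receptor, and FCGR1A and FCGR3A, activating IgG receptors, were at 0 UMIs. Of 10 mast cell and basophil markers other than FCER1G, 0 reached 10 CPM, and their sum was 9.29 CPM. Of 17 myeloid markers 1 did (CST3, a protease inhibitor made by many cell types, at 61.7 CPM), and 9 were at 0, among them CD14, MPO and CEBPA. TYROBP, the other ITAM adaptor of myeloid and natural killer cells, stood at 6.07 CPM, with 0.930 CPM in non-cycling cells without FCER1G and 6.34 CPM in the chemokine cells. Of 11 natural killer cell markers 1 reached 10 CPM, NKG7 at 26.1 CPM. CD3D, CD3E and CD3G were at 0, whereas the kinase LCK stood at 66.3 CPM, the costimulatory receptor CD28 at 25.4 CPM and TRAC at 14.7 CPM. All 8 erythroid markers were at 0. By these markers the selected cells were B precursor-like cells that held FCER1G, with part of the mature B and plasma cell markers also present. In the other non-cycling cells the precursor, mature B and plasma cell sums were 6075, 226 and 799 CPM. LCK and TRAC stood there at 59.0 and 15.8 CPM, so these traits were not particular to the selected cells.

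Over cells of every depth, RUNX1 transcript was at a like level in the selected cells and the other non-cycling cells. Its level went against the label of the library. RUNX1 (ENSG00000159216, GRCh37 chromosome 21, 36160098 to 37376965, minus strand) stood at 27.3 CPM (23.8 to 31.1) in the selected cells, 31.2 CPM in non-cycling cells without FCER1G or chemokines, 24.9 CPM in the chemokine cells and 81.5 CPM in the low-cycling control cells. The log2 ratio to the cells without FCER1G was -0.20, with an interval of -0.47 to 0.08. Under 8000, at 8000 to 12000 and at 12000 or more UMIs the selected cells stood at 55.5, 24.8 and 22.4 CPM. The cells without FCER1G stood at 35.7, 12.5 and 33.4 CPM, so that the direction turned in the deepest cells. The sources used here do not say whether an introduced RUNX1 transcript carries the 3' end that this assay reads.

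Against all 1694 other non-cycling cells, the selected cells differed in few genes. Of 7827 genes that reached 10 CPM in either group, outside the 12 genes that the selection read, 40 (0.511%) were 1.5-fold or more higher and 109 (1.39%) were 1.5-fold or more lower. The highest ratio was that of PTH2, a neuropeptide of the parathyroid hormone family, at 35.6 against 8.77 CPM (log2 ratio 2.02, 1.75 to 2.30). NAPSA, an aspartic protease, followed at 10.5 against 5.16 CPM (log2 ratio 1.03, 0.60 to 1.45), then NAPSB, its close copy, at 19.1 against 10.0 CPM, and reads may be split between these copies. TIMP1, an inhibitor of matrix proteases, stood at 21.1 against 12.6 CPM. CD200, an inhibitory membrane glycoprotein of lymphocytes, stood at 13.4 against 7.86 CPM, a direction that turned (log2 ratio -0.33) among cells under 10% mitochondrial UMIs. The lower genes were led by CD96, an adhesion receptor of T and natural killer cells, at 11.8 against 73.4 CPM (log2 ratio -2.64, -2.95 to -2.34), and included IL18RAP, a chain of the interleukin 18 receptor, at 5.70 against 20.05 CPM. Both were high in the C1orf141 set, at 183 CPM for CD96 and 66.7 CPM for IL18RAP. The Y-linked genes ZFY, PRKY and RPS4Y1 were also lower, RPS4Y1 at 217 against 604 CPM (log2 ratio -1.47, -1.55 to -1.40). RPS4Y1 was held by 22.5% of the selected cells and 89.0% of the C1orf141 set. In the cells without FCER1G it was held by 45.9% and in the chemokine cells by 19.0%. The other non-cycling cells are a mixture, and the 3 sets within them were next taken one by one. These comparisons and that with the control share the 706 cells.

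The nearest set, 488 non-cycling cells that met every limit but held 0 FCER1G UMIs, differed from the selected cells in many genes. Of these cells 438 held no chemokine UMI. Of 7789 genes, 678 (8.7%) were 1.5-fold or more higher in the selected cells and 324 (4.16%) were lower, so that higher genes were 67.7% of those past the limit. That share was 53.3% where totals were replaced by the median of ratios. The 488 cells were deeper, with a median of 14992.5 UMIs, and P was 0 in 61.3% of them. The calls moved with depth: within cells of 12000 or more UMIs 367 of the 678 higher genes (54.1%) and 215 of the 324 lower genes (66.4%) still passed the limit. All counts of higher and lower genes in the next paragraphs are over cells of every depth. Those against the cells without FCER1G stand beside 8.7% higher and 4.16% lower over all genes. Those against the cells without FCER1G that lose members at 12000 or more UMIs say so.

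Genes of enzymes and surface receptors were among the higher ones. GCHFR, a regulator of GTP cyclohydrolase in tetrahydrobiopterin synthesis, stood at 338 against 64.6 CPM (log2 ratio 2.39, 2.25 to 2.53). IL4I1, a secreted L-amino acid oxidase, stood at 168 against 36.7 CPM (log2 ratio 2.20, 2.01 to 2.39). RHOB, a small GTPase, stood at 181 against 44.6 CPM. GCHFR, IL4I1 and RHOB are the genes whose promoters are printed above. RHOB had log2 ratios of 0.27, 1.42 and 1.51 under 8000, at 8000 to 12000 and at 12000 or more UMIs. It was thus short of 4-fold at each depth. CD28 stood at 25.4 against 4.65 CPM (log2 ratio 2.45, 1.93 to 3.01), the integrin chain ITGB7 at 87.7 against 25.1 CPM and the VEGF receptor gene KDR at 69.8 against 18.3 CPM. Over the same depths KDR had log2 ratios of 0.63, 1.33 and 1.33. Of the 11 measured genes of a list of receptors and enzymes near absent from the control, 11 were higher, with a median log2 ratio of 2.02 against 0.08 over all genes. At 12000 or more UMIs 10 of them passed, and FBXO32, a ubiquitin ligase component, passed at no depth, with 51.3, 24.8 and 10.4 CPM in the selected cells under 8000, of 8000 to 12000 and of 12000 or more UMIs and 47.7, 21.3 and 7.17 CPM in those without FCER1G. That list had been chosen on these libraries and is no independent evidence of direction.

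Rarer transcripts led the ratios themselves. PTH2 stood at 35.6 against 1.33 CPM (log2 ratio 4.74, 3.84 to 5.82), SPINK2, a protease inhibitor, at 21.6 against 1.196 CPM (log2 ratio 4.17, 3.21 to 5.33) and UPB1, an enzyme of pyrimidine breakdown, at 20.2 against 1.33 CPM (log2 ratio 3.93, 3.01 to 5.01). PTH2 was held by 57 of the 706 cells (8.07%) with up to 24 UMIs in 1 cell, and the highest 1% of cells held 49.5% of its UMIs.

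Most measured mature B cell genes were higher and several genes of the precursor stage were lower in the selected cells. Of 9 measured mature B cell genes and TNF family receptors 6 were higher and 0 lower, with a median log2 ratio of 0.71. Among them were the tetraspanin CD37 at 52.9 against 11.4 CPM (log2 ratio 2.21, 1.87 to 2.56), MS4A1, which encodes CD20, at 24.4 against 14.9 CPM and TNFRSF13B, a receptor for BAFF and APRIL, at 59.6 against 36.7 CPM. These 6 passed the limit at 12000 or more UMIs and 3 of them at 8000 to 12000, where MS4A1 had a log2 ratio of -0.10. Of 10 genes of V(D)J recombination and precursor markers 4 were lower and 1 higher, the surface protein CD99. The 4 lower genes passed the limit at 8000 to 12000 and at 12000 or more UMIs, and CD99 passed only in the latter cells. RAG1 and RAG2, the recombinase, stood at 1.98 against 15.4 CPM and at 6.81 against 24.2 CPM. DNTT, which adds bases at the joins, stood at 45.8 against 137 CPM (log2 ratio -1.58, -1.76 to -1.41), and IL7R, the receptor for interleukin 7, at 30.9 against 132 CPM (log2 ratio -2.10, -2.31 to -1.90). Of 4 blood progenitor factors 2 were lower, MYB at 10.9 against 47.8 CPM (log2 ratio -2.13, -2.49 to -1.79) and LMO2 at 4.71 against 12.0 CPM.

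The pre-B cell receptor and its B lineage factors did not go 1 way. Of 17 measured receptor components 3 were higher (CD79A, the kinase BLK and PRKCB) and 4 were lower (CD22, BACH2, FCRLA and VPREB3). PRKCB had a log2 ratio of -0.38 under 10% mitochondrial UMIs. That setting left 13 cells without FCER1G and counts under 3 UMIs were raised to 3, so this value cannot be read as a level. CD79A, the alpha signalling chain, stood at 535 against 288 CPM (log2 ratio 0.90, 0.82 to 0.97), CD22, an inhibitory receptor, at 3.72 against 15.8 CPM and VPREB3 at 411 against 633 CPM. VPREB3 passed the limit at no depth, with 240, 381 and 470 CPM in the selected cells and 280, 529 and 654 CPM in those without FCER1G, and CD79A fell short of it at 12000 or more UMIs, at 380 against 273 CPM. IGHM, the heavy chain, stood at 622 against 607 CPM, within the limit. Of 24 transcription factors of the B lineage 4 stood higher and 6 lower. At 12000 or more UMIs 3 of the 4, without ID2, and 6 of the 6 passed the limit. At 8000 to 12000 UMIs 3 of the 4 and 3 of the 6 did, and POU2AF1, one of the lower ones, had a log2 ratio of 1.10. SPIB, an ETS factor of B cell activation, stood at 283 against 147 CPM (log2 ratio 0.95, 0.84 to 1.05) and POU2F2 at 198 against 115 CPM, whereas PAX5, the commitment factor, stood at 83.1 against 147 CPM (log2 ratio -0.82, -0.96 to -0.68). EBF1 was within the limit at 214 against 195 CPM.

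Of a list of Fc receptor and ITAM signalling genes, 4 of 11 measured were higher and 0 lower, with a median log2 ratio of 0.44. They were FCGR2B, the inhibitory IgG receptor, at 14.7 against 7.57 CPM, the adaptor LAT2 at 168 against 94.9 CPM, the phosphatase PTPN6 at 427 against 270 CPM and the phospholipase PLCG2 at 30.9 against 20.3 CPM. SYK, the kinase that binds the motif, stood at 44.7 against 48.6 CPM, and LYN, a Src family kinase, at 23.7 against 31.4 CPM, both short of the limit. At 12000 or more UMIs 3 of the 4 passed, without PLCG2, and at 8000 to 12000 UMIs 1 did. FCGR2B stood at 19.2 against 22.5 CPM at 8000 to 12000 UMIs (log2 ratio -0.23), so that its direction turned there.

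Growth-related transcripts were lower or within the limit. Of 33 MYC targets and genes of nucleolar assembly 15 were lower and 0 higher, with a median log2 ratio of -0.51, among them TFRC, the transferrin receptor, at 17.1 against 35.2 CPM and NME1, a nucleoside diphosphate kinase, at 168 against 329 CPM. At 12000 or more UMIs 4 of these 15 passed the limit and 15 kept their direction. MYC stood at 284 against 531 CPM (log2 ratio -0.90, -0.98 to -0.83). E2F1, a driver of S phase entry, had the lowest ratio of the genes measured at 1.24 against 12.1 CPM (log2 ratio -3.29, -4.39 to -2.34), and 4 of 20 S phase genes were lower and 0 higher. Metallothioneins, which bind zinc and copper, formed a further lower set, with MT1X at 308 against 1572 CPM (log2 ratio -2.35, -2.42 to -2.29), MT1G at 201 against 782 CPM and MT2A at 30.6 against 91.8 CPM. These small genes are close copies of each other, so that their single values are uncertain. Of 20 lysosome and autophagy genes 5 were higher and 0 lower, led by the cathepsin CTSZ at 60.2 against 13.6 CPM and the saposin precursor PSAP at 275 against 95.3 CPM, and 3 of the 5 passed at 12000 or more UMIs. Of 14 FOXO targets and quiescence genes 6 were higher and 0 lower, among them YPEL3 at 124 against 56.5 CPM. This count moved with depth, with 2 of the 6 past the limit at 12000 or more UMIs and 0 under 8000. YPEL3 stood at 307, 145 and 68.5 CPM in the selected cells over the 3 depths and at 345, 106 and 43.0 CPM in those without FCER1G, so that its direction turned in the shallowest cells.

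**Figure D2:**
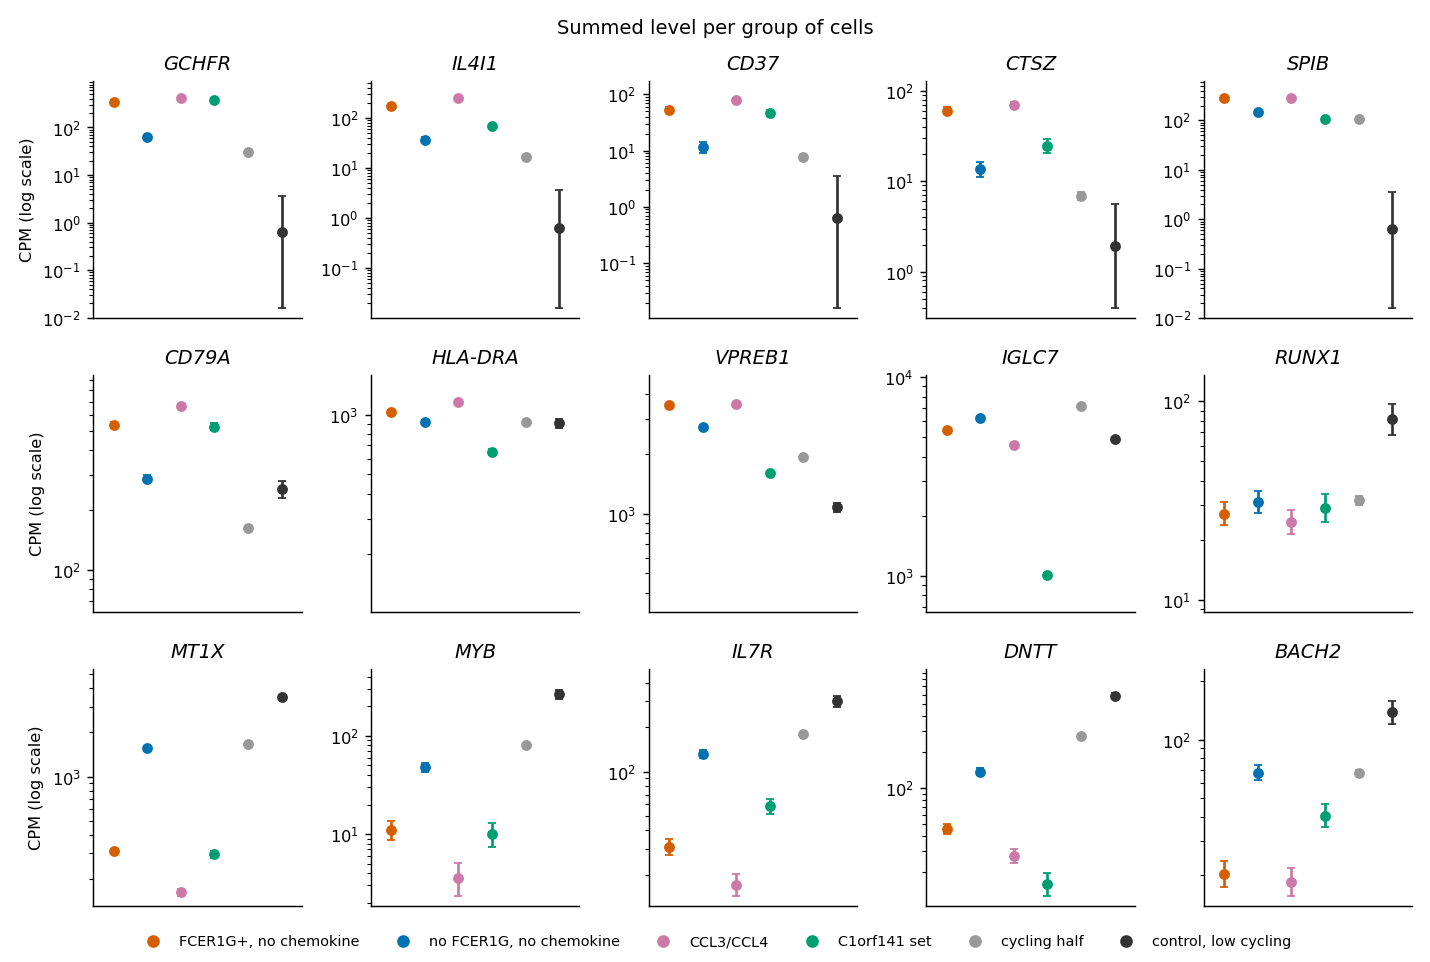
Level of 15 genes in CPM (logarithmic vertical axes) in 6 groups of cells with exact Poisson intervals. GCHFR, IL4I1 and CD37 stand higher in the selected cells than in the non-cycling cells without FCER1G, and MT1X, MYB, IL7R and DNTT stand lower.

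Compared with the 715 chemokine cells, which held 2 or more UMIs of CCL3 and CCL4 together, the selected cells differed in few genes. Of 7807 genes 51 (0.653%) were 1.5-fold or more higher and 70 (0.897%) were lower. MYB stood at 10.9 against 3.55 CPM (log2 ratio 1.62, 0.99 to 2.29), IL7R at 30.9 against 17.1 CPM, DNTT at 45.8 against 27.1 CPM and MT1X at 308 against 162 CPM (log2 ratio 0.93, 0.83 to 1.03). These genes, lower than in the cells without FCER1G, were thus higher than in the chemokine cells. In the other direction stood ITGB7 at 87.7 against 160 CPM, CD28 at 25.4 against 46.1 CPM, GZMK, a granzyme, at 46.0 against 81.6 CPM and TNFRSF13B at 59.6 against 102 CPM. Of the 11 receptors and enzymes near absent from the control 5 were lower and 0 higher. GCHFR at 338 against 423 CPM and IL4I1 at 168 against 245 CPM stood lower by less than 1.5-fold, and SPIB stood at 283 against 281 CPM. Of 31 MYC targets and nucleolar genes 0 passed the limit in either direction.

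The 491 cells of the C1orf141 set differed in more genes than the chemokine cells did. Of 8162 genes 348 (4.26%) were 1.5-fold or more higher in the selected cells and 982 (12%) were lower. The immunoglobulin lambda constant genes were higher, IGLC7 at 5424 against 1014 CPM (log2 ratio 2.42, 2.38 to 2.46) and IGLC3 at 539 against 138 CPM, genes whose reads can be shared among copies. Of 17 receptor components 10 were higher and 2 lower, among them the adaptor BLNK at 43.6 against 11.8 CPM, IGLL1 at 1056 against 322 CPM and VPREB1 at 3505 against 1608 CPM. Of 12 MHC class II genes and regulators 5 were higher and 0 lower. Lower were CD96 at 11.8 against 183 CPM, PLCB4, a phospholipase, at 1.49 against 29.2 CPM and CD274, which encodes PD-L1, at 0.991 against 17.6 CPM. Of 16 FOXO targets and quiescence genes 12 were lower and 0 higher, with a median log2 ratio of -0.91 against -0.12 over all genes, FBXO32 at 20.4 against 84.9 CPM and YPEL3 at 124 against 284 CPM among them. Of 6 histone genes 5 were lower.

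**Figure D3:**
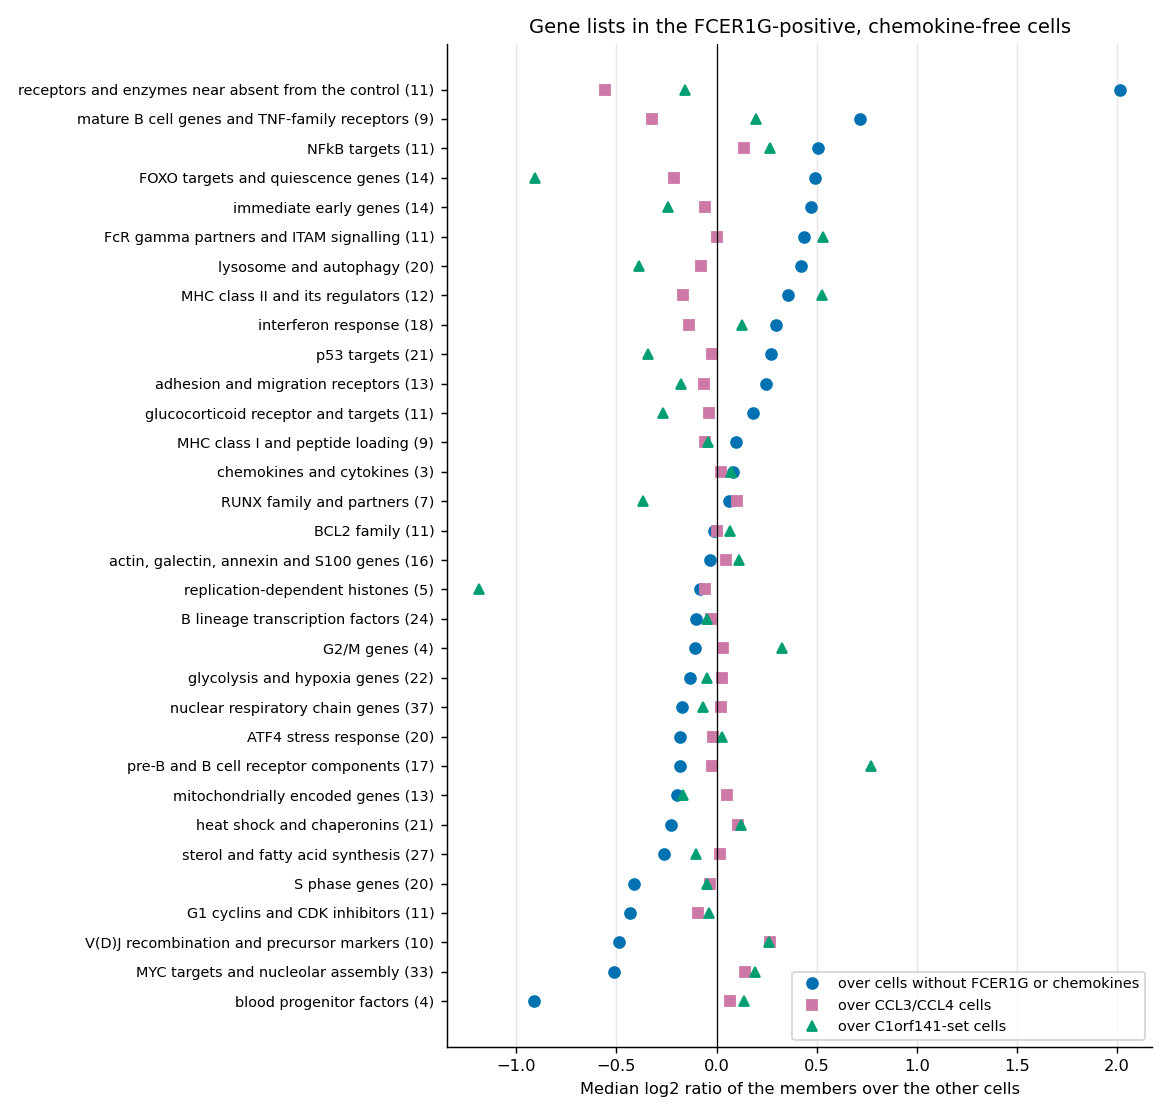
Median log2 ratio of each gene list (horizontal axis) in the selected cells over 3 other sets of non-cycling cells of the same library. The receptors and enzymes near absent from the control stand at 2.02 over the cells without FCER1G and at -0.56 over the chemokine cells, and FOXO targets stand at 0.49 over the former and at -0.91 over the C1orf141 set.

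The 147 control cells with a P under the same limit served as the control background. Of 8096 genes 1763 (21.8%) were 1.5-fold or more higher in the selected cells and 1627 (20.1%) were lower, and the interval excluded a ratio of 1 for 1528 and 1530 of them. Higher genes were 52.0% of those past the limit, and 66.4% where totals left out mitochondrial and ribosomal protein genes. Lower genes were the majority under other settings, with higher genes at 42.5% in cells of 10000 to 20000 UMIs, 41.1% in cells of 12000 or more, 47.8% with the rule read at 8000 UMIs and 46.2% at a floor of 20 CPM, so that neither direction prevailed throughout. GCHFR, SPIB and IL4I1, at 338, 283 and 168 CPM in the selected cells, each had 1 UMI in the control cells, or 0.642 CPM. ITGB7 and KDR had 0 UMIs there. MYB stood at 10.9 against 265 CPM (log2 ratio -4.60, -4.95 to -4.27), DNTT at 45.8 against 583 CPM and MT1X at 308 against 3486 CPM. In these genes the cells without FCER1G, at 47.8, 137 and 1572 CPM, lay between the control cells and the selected cells. VPREB1 at 3505 against 1074 CPM went the other way.

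Among the selected cells, the level of many genes differed with the amount of FCER1G. Cells with 8 or more FCER1G UMIs were set against those holding 1, and of 8133 genes 1226 (15.1%) were 1.5-fold or more higher and 571 (7.02%) lower, with intervals that excluded a ratio of 1 for 761 and 359. The number of FCER1G UMIs is itself part of what chose the cells, and median depth moved with it, at 12606, 11517.5, 10563 and 9677 UMIs over the 4 bins. GCHFR stood at 182, 344, 419 and 400 CPM over the bins of 1, 2 to 3, 4 to 7 and 8 or more UMIs. IL4I1 stood at 62.4, 147, 234 and 229 CPM and CD28 at 7.16, 24.0, 33.5 and 38.2 CPM. All 3 were lowest in cells with 1 FCER1G UMI. CTSZ went from 28.1 to 95.6 CPM and CD79A from 403 to 710 CPM with a step up at each bin. SPIB at 250, 284, 321 and 260 CPM and RUNX1 at 24.0, 33.7, 25.4 and 25.3 CPM had no such order.

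The lower genes ran the other way. MT1X stood at 586, 311, 173 and 159 CPM, MYB at 21.5, 9.68, 7.25 and 4.78 CPM and DNTT at 75.2, 45.6, 36.7 and 22.5 CPM. Of 32 MYC targets and nucleolar genes 18 were lower in the highest bin and 0 higher, with a median log2 ratio of -0.73. Of 22 p53 targets 7 were higher and 0 lower. Over all genes 15.1% were higher and 7.02% lower. The share of cells with 1 chemokine UMI was 24.2%, 31.0%, 38.1% and 46.5% over the bins. FCER1G and the chemokines are both values that the selection read, so these shares are given only as a description.

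**Figure D4:**
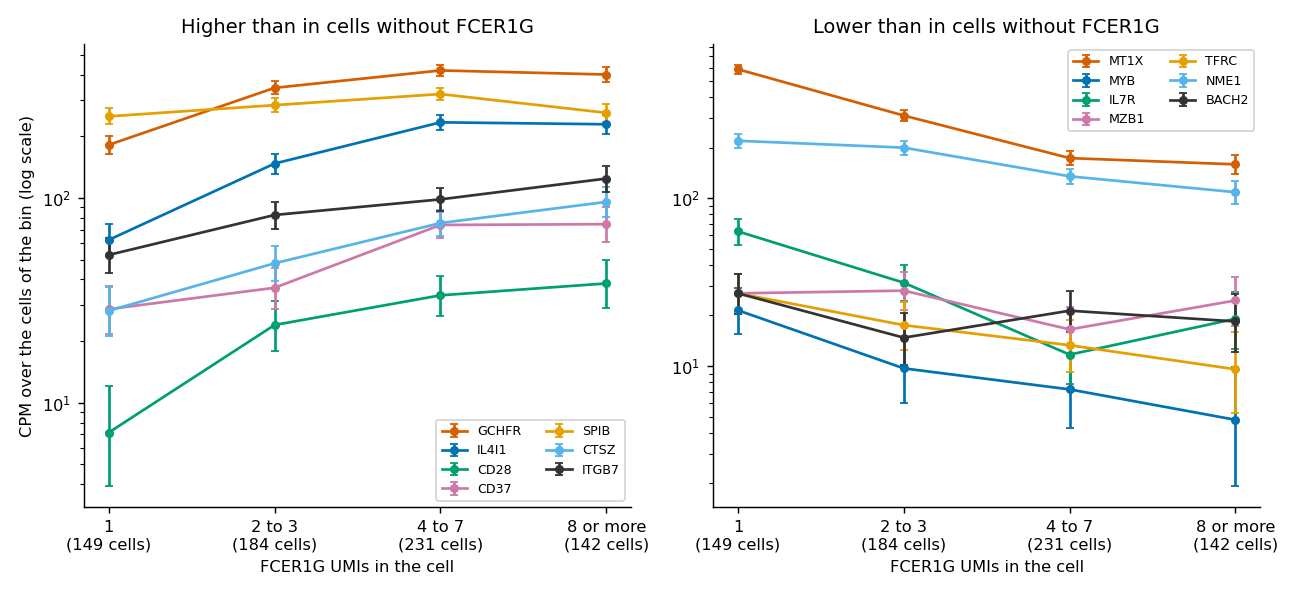
Level in CPM (logarithmic vertical axes) of 7 genes that were higher (left) and 7 that were lower (right) than in cells without FCER1G, in the 706 cells binned by their FCER1G UMIs (horizontal axis). GCHFR goes from 182 to 400 CPM and MT1X from 586 to 159 CPM between the first and the last bin.

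At the FCER1G limit of the selection GCHFR and MT1X changed by steps. GCHFR stood at 64.6 CPM with 0 FCER1G UMIs, 182 CPM with 1 and 294 CPM with 2, and MT1X at 1572, 586 and 352 CPM. Median depth fell over these cells, at 14992.5, 12606 and 12065 UMIs, and its part in the steps was not tested. At the chemokine limit, GCHFR stood at 302 CPM in cells with 0 chemokine UMIs, 410 CPM with 1 (inside) and 413 CPM with 2 (outside). It thus stood alike on both sides of that limit. A further 61 cells held 2 or more chemokine UMIs but no FCER1G, and GCHFR stood there at 277 CPM and MT1X at 311 CPM.

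The shallowest of the selected cells differed from the rest. Of the 706 cells 150 (21.2%) held under 8000 UMIs, against 5.53% of the cells without FCER1G, 23.1% of the chemokine cells and 33.8% of the C1orf141 set. A cell of that depth exceeds the limit on P with 1 UMI of the 6 genes, and P was 0 in all 150. Their mitochondrial share had a median of 11.8% against 13.4% in the other 556 cells, and 28.0% against 35.4% of their UMIs came from ribosomal protein genes. Of 8494 genes 2654 (31.2%) were 1.5-fold or more higher in the shallow cells and 386 (4.54%) lower. The median log2 ratio over all genes was 0.35, and once that median was taken off, 977 were higher and 1105 lower, so the direction of the split rests on the scaling. The split was chosen after the values were seen, and fewer UMIs per cell and a different kind of cell cannot be told apart.

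PTH2 was held mostly by the shallow cells. It stood at 256, 12.6 and 0.472 CPM in selected cells under 8000, of 8000 to 12000 and of 12000 or more UMIs, and 46 of the 57 cells that held it were shallow. In the chemokine cells of the same 3 depths it stood at 62.2, 7.61 and 2.64 CPM. CLIC3, a chloride channel protein, stood at 46.2 against 1.13 CPM (log2 ratio 5.36, 4.26 to 6.65) in the shallow and the other selected cells, the actin-binding LSP1 at 58.5 against 5.21 CPM and SPINK2 at 84.2 against 13.0 CPM. The immediate early gene FOS stood at 153 against 35.1 CPM (log2 ratio 2.12, 1.82 to 2.42), and 10 of 15 immediate early genes were higher and 1 lower. Of 17 FOXO targets and quiescence genes 16 were higher and 0 lower, with a median log2 ratio of 1.11. Over all genes of this split 31.2% were higher and 4.54% lower, with a median log2 ratio of 0.35. RUNX1 stood at 55.5 against 23.4 CPM (log2 ratio 1.25, 0.77 to 1.70).

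Several genes of the B lineage were lower in the shallow cells, without a single direction. Of 17 pre-B and B cell receptor components 5 were lower and 3 higher, and VPREB1 at 2865 against 3592 CPM was within the limit. TCL1A, a coactivator of the kinase AKT, stood at 270 against 946 CPM (log2 ratio -1.81, -1.99 to -1.63), TNFRSF13B at 15.4 against 65.7 CPM, BLNK at 16.4 against 47.3 CPM and IGLC7 at 2543 against 5819 CPM. Of 31 MYC targets and nucleolar genes 15 were lower and 0 higher, where 4.54% of all genes were lower and 31.2% higher. CD79A at 984 against 474 CPM went the other way, and IL4I1 stood at 167 against 168 CPM.

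At like depth, part of the differences from the cells without FCER1G remained. Of the 678 higher genes 191 passed the limit in cells under 8000 UMIs, 374 at 8000 to 12000 and 367 at 12000 or more. Of the 324 lower genes 234, 201 and 215 did. The shallowest class held 27 cells without FCER1G, and counts below 3 UMIs were raised to 3. There RAG1 and LMO2, at 0 UMIs in both sets, counted as lower, and CD28, at 22 against 0 UMIs, fell short of the limit. The counts under 8000 UMIs therefore do not show how many differences remained. GCHFR, IL4I1, CTSZ and MT1X passed in each class, IL4I1 with 2 UMIs in the shallowest cells without FCER1G. GCHFR stood at 546, 418 and 236 CPM against 298, 164 and 46.5 CPM, IL4I1 at 167, 213 and 138 CPM against 11.9, 47.5 and 36.0 CPM and MT1X at 78.1, 121 and 487 CPM against 572, 780 and 1694 CPM, so that the ratio of GCHFR was smallest in the shallowest cells. SPIB, CD79A and PSAP each fell short in 1 of the 3 classes. At 12000 or more UMIs, with 273 selected cells and 384 without FCER1G, the immunoglobulin gene IGLC7 stood at 6333 against 6425 CPM. PTH2 stood at 0.472 against 0.152 CPM, close to absent from both. The C1orf141 set had a lower IGLC7 at each depth, with 382, 353 and 1692 CPM from the shallowest to the deepest cells, where the selected cells had 2543, 5059 and 6333 CPM.

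**Figure D5:**
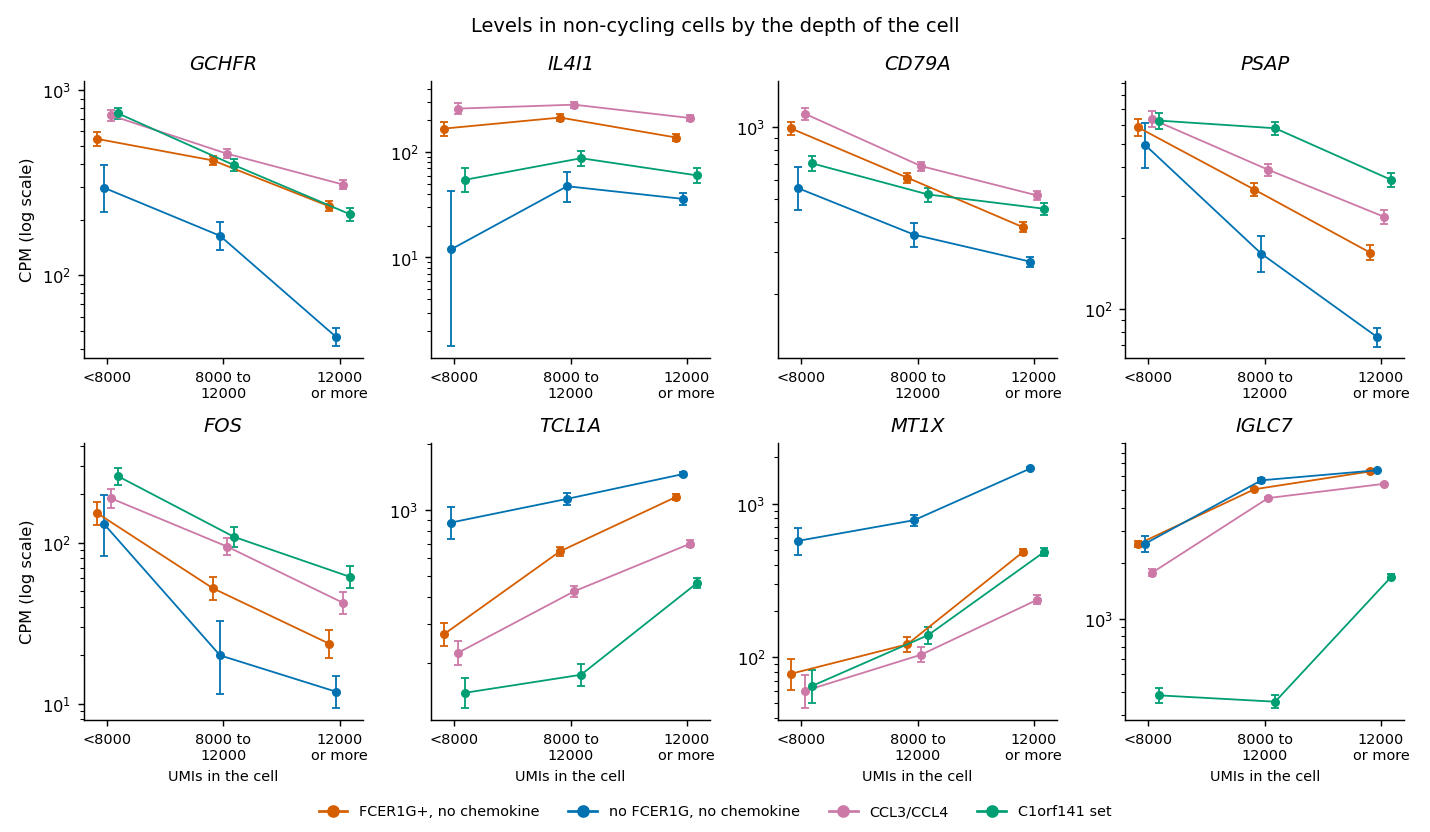
Level of 8 genes in CPM (logarithmic vertical axes) in 4 sets of non-cycling cells of the library labelled RUNX1, each split by the UMIs of the cell (horizontal axis), with exact Poisson intervals. At 12000 or more UMIs GCHFR stands at 236 against 46.5 CPM in the selected cells and the cells without FCER1G, and MT1X at 487 against 1694 CPM.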

How the data were processed

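Both 10x Genomics 3' libraries of Nalm-6 cells were analysed. The deposited counts are whole-number UMIs per gene and cell, which the authors made with Cell Ranger 3.0.2 on joined hg19 and mm10 genomes, with human genes kept here. With 1 library for each condition, no test was possible.

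Counts were summed over the cells of each group and divided by the group's total UMIs to give CPM. Genes that reached 10 CPM in either group were compared by the ratio of CPM, leaving out the 12 genes that the selection read. A ratio of 1.5-fold (0.58 on the log2 scale) was the limit for higher or lower. Groups with fewer than 3 UMIs were ranked against a floor of 3 UMIs. Intervals at 95% were exact (Poisson for levels, Clopper-Pearson for shares, conditional binomial for ratios) and cover counting error only. Thinning to 8000 UMIs used 1 random draw. Total UMIs were 8070460 in the selected cells and 7527481 in the non-cycling cells without FCER1G. No doublets were removed. Gene positions are those of the GENCODE annotation lifted to GRCh37, matched by identifier for 766 of 777 genes.

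Named genes were drawn from RUNX1 and the 15 highest and 15 lowest ratios over the other non-cycling cells. Further ones came from the 10 highest and 10 lowest over those without FCER1G. Up to 4 genes of each list, the cell type markers, and TYROBP with the Fc receptors could also be named. Genes named beyond these, the split by depth and the promoters shown were chosen after their values were seen. The cells and gene lists were chosen with earlier results of these data known. Scripts were tested on simulated data and run with Python 3.11.15, numpy 2.4.6, scipy 1.17.1, pandas 2.3.3 and matplotlib 3.10.9.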

Additional observations from a re-analysis of the deposited data

Results flagged for a closer look

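FCER1G was also present in barcodes that the cell filter left out and that no comparison used. In the 691 such barcodes of the library labelled RUNX1 it stood at 182 CPM (171 to 193), or 1114 UMIs. In the 475 such barcodes of the control library it had 0 of 1557578 UMIs. The part of free RNA and of damaged cells in this signal was not tested.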

How the results depend on the processing

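No paired analysis was possible because the shared replicate numbers belong to ChIP-seq samples, which were not analysed here, and each condition has 1 single-cell library. The share of the selected cells among non-cycling cells was 31.6% with the rule read at 8000 UMIs per cell, 23.2% with 2 or more FCER1G UMIs, 19.1% without any chemokine UMI and 34.8% under 10% mitochondrial UMIs. In the same order the genes higher than in the other non-cycling cells numbered 72, 92, 20 and 732, and under 10% mitochondrial UMIs the lower genes numbered 760. That last setting left 104 selected cells and 13 cells without FCER1G. Against the latter it gave 1127 higher and 2824 lower genes, and it reversed PRKCB (-0.38 over the other non-cycling cells and -0.38 over those without FCER1G), CD200 (-0.33 over the others), NAP1L5 (-0.49 over those without FCER1G) and LSP1 (-0.32 over the same), with the cause not tested. Over cells of 10000 to 20000 UMIs 412 genes were higher than without FCER1G. Over cells of 12000 UMIs or more 350 were, and 66 were higher and 173 lower than in the other non-cycling cells. Totals without mitochondrial and ribosomal protein genes gave 97 higher and 191 lower genes over the others, 509 lower over the cells without FCER1G and 2887 higher over the control cells, where they moved the median of all genes to 0.16. A floor of 20 CPM, which tests fewer genes, gave 16 higher and 55 lower over the others, 395 and 205 over the cells without FCER1G and 1070 higher over the control cells. A floor of 2 CPM gave 263 and 480, 1628 and 696, and 3038. Of the values of single named genes under all settings 738 moved by less than the counting interval, 146 by more and 5 reversed. The settings with only cells of P of 0 and with only cells of 12000 UMIs or more were chosen after seeing the data. Groups of 61, 27 and 13 cells and genes near 10 CPM have wide counting intervals.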

Other observations

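Interferon-related genes, which encode antiviral proteins and their regulators, were mostly within the limit or higher in the selected cells than in the non-cycling cells without FCER1G. Of 18 measured genes 6 were higher and 1 lower, with a median log2 ratio of 0.30 against 0.08 over all genes. Over all 7789 genes of this comparison 8.7% were higher and 4.16% lower. At 12000 or more UMIs 3 of the 6 higher interferon genes still passed the limit, and the lower one, IFITM2, did not. Of 21 p53 targets 5 were higher and 2 lower, the antiproliferative BTG2 (log2 ratio 1.14) among the former. The cell cycle inhibitor CDKN1A, at 65.2 against 99.4 CPM, was among the latter. Of these genes 2 of the 5 higher and 1 of the 2 lower ones passed at 12000 or more UMIs. Of 14 immediate early genes 5 were higher and 2 lower, and 3 of the 5 and 2 of the 2 passed at that depth. Of 37 nuclear respiratory chain genes 0 were higher and 2 lower, a share near that over all genes, and 1 of the 2 passed at 12000 or more UMIs. Of 13 mitochondrially encoded genes 0 passed the limit in either direction.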
